A study of Mus musculus with 10 samples.

Results

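The genes described are 7 markers of satellite glia and Schwann cells, *Apoe*, *Mbp*, *Pmp22*, *Fabp7*, *S100b*, *Sox10* and *Glul*. They were chosen by symbol, as glial markers, from the 24421 gene rows counted in pools of mouse vagal sensory neurons that had been picked one at a time under the microscope. The study sequenced 10 pools in 5 groups of 2, to compare C-fiber neurons of the nodose ganglion with those of the jugular ganglion. In the Trpv1-tdTomato selection, neurons came from Trpv1-tdTomato mice, in which Cre driven from the *Trpv1* locus switches on the red reporter at the ROSA26 locus, so that a cell is marked if it expresses *Trpv1* or did so earlier. Red neurons gave the Trpv1+ nodose and Trpv1+ jugular pools, and neurons without the reporter gave the Trpv1- nodose pools, which held fewer cells. In the capsaicin selection, nodose and jugular neurons of C57BL/6 wild-type mice were picked after they had answered capsaicin in a calcium assay. These pools held fewer cells each than the Trpv1+ pools. The 2 selections were also sequenced at different cores and depths, so selection, strain, calcium assay, core and depth cannot be told apart in any difference between them. Between the capsaicin and Trpv1+ pools, cell number cannot be told apart from these either. The Trpv1- pools held about as many cells as the capsaicin pools, but their neurons also differ in type. The part of cell number was not tested. By the study's methods, all pools of the Trpv1 selection came from the same pair of mice, so they are not separate animals, and which animals gave the capsaicin pools is not stated in the sources used here. All p-values, those of the permutation test included, therefore measure the spread between pools only.

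Satellite glia wrap the cell bodies of sensory neurons in the ganglia, and Schwann cells ensheathe or myelinate their axons. Both arise from the neural crest under the transcription factor SOX10, and neurons are freed from them by enzymatic dissociation before they are picked. Their marker genes differ in how specific they are: *Sox10* and the myelin gene *Mag* are hardly used by neurons, while *Apoe*, *Pmp22*, *Fabp7*, *S100b* and *Glul* can be transcribed by other cells as well.

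Of the 7 genes, 6 were tested between the selections and 3 were called, 2 lower and 1 higher in capsaicin pools. Of all 11959 genes tested 5.84% were called, 4.06% lower and 1.77% higher in the capsaicin selection. *Apoe*, which encodes a lipid-carrying apolipoprotein, was 14.6-fold lower in mean CPM in the 4 capsaicin pools than in the 4 Trpv1+ pools. *Fabp7*, a fatty acid binding protein of immature and satellite glia, was 3.58-fold lower, and *Pmp22*, a tetraspan protein of compact myelin, was 4.37-fold higher. *Sox10* was at 0 in all 4 capsaicin pools and near 0 in the Trpv1+ pools. No member passed the test between nodose and jugular neurons. Of all genes tested, 0.318% passed it in the Trpv1 selection, 0% in the capsaicin selection and 0.577% over both. In pooled counts, fewer cells of a type and less RNA per cell cannot be told apart.

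CPM here is the count divided by the pool's DESeq2 size factor over the 10 pools and scaled to the geometric mean total. Pools of the Trpv1 selection held 148452506 to 167704327 counts over 12153 to 13029 detected genes, and capsaicin pools 17666710 to 30810863 counts over 7889 to 10010 genes. A count of 3, taken as the detection floor for counting error only, was worth 0.0144 to 0.0191 CPM in pools of the Trpv1 selection and 0.146 to 0.217 CPM in capsaicin pools. The ribosomal gene *Rn45s* took 2.65% to 10.3% of the counts in the former and 0.0143% to 0.137% in the latter. *Trpv1* itself, at 22.1 to 250.5 CPM in the Trpv1+ pools and 87.4 to 307 CPM in the capsaicin pools, had 8 and 9 counts in the Trpv1- pools. Of the 12 neuronal markers listed (*Tubb3*, *Uchl1*, *Snap25* and others), 10 were at or above 10 CPM in every pool. The summed CPM of the neuronal list was 17166 to 18732 in pools of the Trpv1 selection and 10770 to 27332 in capsaicin pools.

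The members whose level changed between selections are shown with the 250 bases before their RefSeq start (GRCm38.p6, gene strand, 5′ to 3′), since the results turn on these 3 genes. RefSeq lists 3 starts for *Apoe* and 4 for *Pmp22*, of which the one at the start of the annotated gene is shown. The RefSeq start of *Fabp7* lies 42 bases inside the annotated gene, so the last 42 bases of its window belong to that gene. The *Apoe* window is chr7:19699189-19699438 on the minus strand, that of *Pmp22* is chr11:63128732-63128981 and that of *Fabp7* is chr10:57784673-57784922, both on the plus strand. Capitals mark ACAAAG or ACAATG on either strand, 6-letter cores of the kind SOX factors bind.
Apoe: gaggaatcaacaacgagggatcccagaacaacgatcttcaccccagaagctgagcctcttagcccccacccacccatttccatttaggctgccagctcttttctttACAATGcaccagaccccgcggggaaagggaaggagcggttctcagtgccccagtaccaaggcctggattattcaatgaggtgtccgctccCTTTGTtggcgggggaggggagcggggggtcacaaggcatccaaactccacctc
Pmp22: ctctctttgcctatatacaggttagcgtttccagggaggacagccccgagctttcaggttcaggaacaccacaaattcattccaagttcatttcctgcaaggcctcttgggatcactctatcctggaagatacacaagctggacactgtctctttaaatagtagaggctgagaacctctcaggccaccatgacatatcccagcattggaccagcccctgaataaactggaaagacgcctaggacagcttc
Fabp7: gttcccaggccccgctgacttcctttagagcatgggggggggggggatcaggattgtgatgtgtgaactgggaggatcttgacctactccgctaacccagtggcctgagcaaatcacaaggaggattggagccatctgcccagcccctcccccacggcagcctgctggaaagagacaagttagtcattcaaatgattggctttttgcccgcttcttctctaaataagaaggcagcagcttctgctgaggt
The *Apoe* window held 2 matches, starting 144 and 54 bases before the start, and the other windows held 0. Of 32851 windows of the same length, 25.2% held at least 1 such match, and a match describes letters, not a binding site. RefSeq promoter entries were found for 5 of the 7 members, not for *Sox10* or *Mbp*.

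*Apoe* (chr7:19696109-19699188, minus strand) was among the most abundant genes of the Trpv1 selection. Its level was 3035 and 3377 CPM in the Trpv1+ nodose pools, 2528 and 3814 CPM in the Trpv1+ jugular pools and 2864 and 2637 CPM in the Trpv1- nodose pools. The capsaicin nodose pools had 335 and 294 CPM and the capsaicin jugular pools only 78.4 and 164 CPM. Every pool of the Trpv1 selection stood above every capsaicin pool, and the Trpv1+ jugular pools spanned the values of both nodose groups of the Trpv1 selection. By CPM it ranked between 8 and 23 among all genes in the Trpv1 selection and between 679 and 2401 in the capsaicin selection. Of the summed CPM of the 7 genes, *Apoe* made up 68.8% to 77.6% in the Trpv1 selection and 4.05% to 17.9% in the capsaicin selection.

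*Fabp7* (chr10:57784881-57788450, plus strand) had the same direction with a smaller distance. It stood at 731 and 371 CPM in the Trpv1+ nodose pools, 219 and 286 CPM in the Trpv1+ jugular pools and 474 and 339 CPM in the Trpv1- nodose pools. It measured 123 and 75.4 CPM in capsaicin nodose and 91.2 and 159 CPM in capsaicin jugular pools. The lowest pool of the Trpv1 selection, Trpv1+ jugular, was still above the highest capsaicin pool.

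*Pmp22* (chr11:63128982-63159547, plus strand) went the opposite way. Its CPM was 179 and 330 in the Trpv1+ nodose pools, 330 and 366 in the Trpv1+ jugular pools and 294 and 223 in the Trpv1- nodose pools, against 1137 and 1273 in capsaicin nodose and 1132 and 1723 in capsaicin jugular pools. All capsaicin pools were higher than all pools of the Trpv1 selection. It made up 49.9% to 79.0% of the summed CPM of the 7 genes in the capsaicin selection, compared with 4.17% to 8.995% in the Trpv1 selection.

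*S100b* and *Glul*, markers of glial cytoplasm, were expressed in every pool without a common direction. *S100b* (chr10:76253853-76261159, plus strand), a calcium-binding protein, was at 205 and 235 CPM in Trpv1+ nodose, 521 and 441 CPM in Trpv1+ jugular and 449 and 418 CPM in Trpv1- nodose pools. In the capsaicin selection its replicates disagreed, at 64.0 against 663 CPM in the nodose and 600.2 against 109 CPM in the jugular group, ratios of 10.4 and 5.51. *Glul* (chr1:153899944-153909723, plus strand) encodes glutamine synthetase, which turns glutamate taken up by glia into glutamine. It measured 135 and 30.1 CPM in Trpv1+ nodose, 53.7 and 38.9 CPM in Trpv1+ jugular, 51.7 and 21.2 CPM in Trpv1- nodose, 129 and 244 CPM in capsaicin nodose and 31.4 and 18.1 CPM in capsaicin jugular pools. In capsaicin neurons both nodose pools were above both jugular ones, which holds in either direction for 42.1% of all genes tested there, and in the Trpv1 selection the groups overlapped. Of the exon bases of *Glul*, 3.49% are shared with *Teddm2* on the opposite strand and 2.80% with *Mir8114*, and whether the reads were counted by strand is not given in the sources used here.

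*Mbp* and *Sox10* were close to the floor in several pools. *Mbp* (chr18:82475146-82585637, plus strand), the myelin basic protein gene, had 0.459 and 7.34 CPM in Trpv1+ nodose, 21.0 and 5.69 CPM in Trpv1+ jugular and 18.7 and 33.8 CPM in Trpv1- nodose pools. One capsaicin nodose pool reached 80.5 CPM while the other had 0.435 CPM, and the capsaicin jugular pools had 0.194 and 8.42 CPM. The ratio of 185 between the capsaicin nodose pools was wider than any difference between group means of *Mbp*. *Sox10* (chr15:79154908-79165240, minus strand) was counted 2627 and 537 times in the Trpv1- nodose pools, which is 12.6 and 2.78 CPM. It had 0 and 36 counts in Trpv1+ nodose, 1 and 5 in Trpv1+ jugular and 0 in each of the 4 capsaicin pools.

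**Figure D1:**
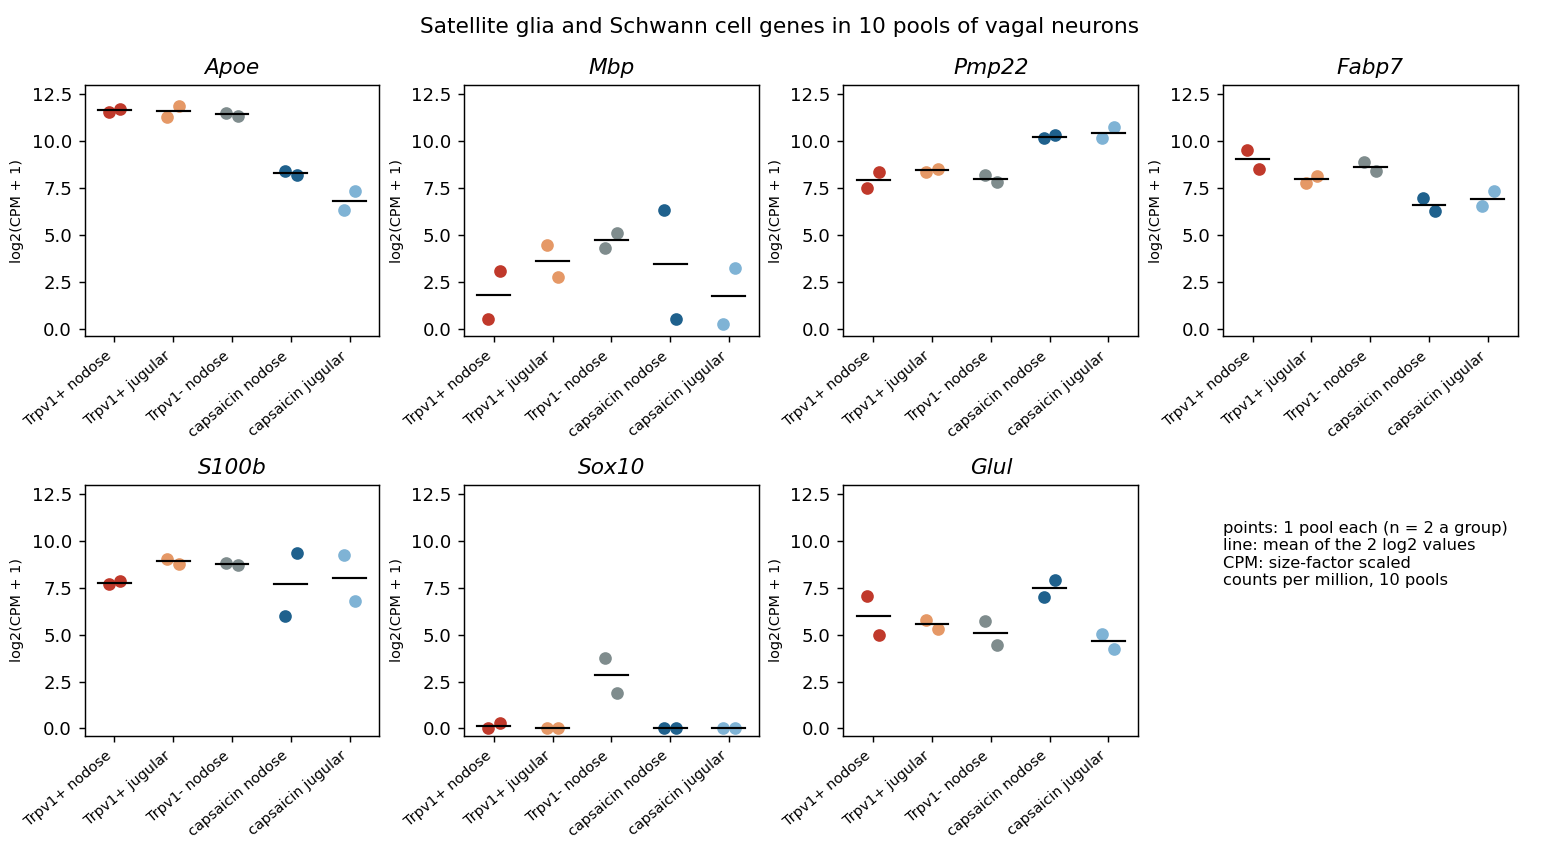
Level of each of the 7 genes in the 10 pools, as log2(CPM + 1) on the vertical axis, with 1 point per pool and a line at the mean of the 2 log2 values of each group. *Apoe* and *Fabp7* are lower and *Pmp22* higher in all 4 capsaicin pools than in all 6 pools of the Trpv1 selection, and *Sox10* leaves the bottom of the axis in the Trpv1- nodose pools.

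Divided by the length of the merged exons, the genes can be ordered within a group. In Trpv1+ nodose pools the order of the mean CPM per kilobase was *Apoe* (1500 ± 113, SD, n = 2), *Fabp7* (441 ± 204), *S100b* (148 ± 14.1), *Pmp22* (108 ± 45.6), *Glul* (24.9 ± 22.3), *Mbp* (0.461 ± 0.575) and *Sox10* (0.0358 ± 0.0507). The neighbours *S100b* and *Pmp22* were within their spread, as were *Mbp* and *Sox10*. In Trpv1+ jugular pools *Apoe* led at 1483 ± 425 CPM per kilobase, followed by *S100b* (324 ± 38.1), *Fabp7* (202 ± 37.8) and *Pmp22* (148 ± 10.7). In Trpv1- nodose pools *Apoe* (1287 ± 75.1), *Fabp7* (325 ± 76.7), *S100b* (292 ± 14.5) and *Pmp22* (110 ± 21.5) kept the order of the Trpv1+ nodose pools, with *Fabp7* and *S100b* within their spread. In both capsaicin groups *Pmp22* led, at 512 ± 40.8 CPM per kilobase in nodose and 607 ± 177 in jugular pools. Below it in capsaicin nodose came *S100b* (245 ± 285), *Apoe* (147 ± 13.6), *Fabp7* (79.4 ± 27.1) and *Glul* (56.2 ± 24.5), of which *S100b* could not be placed because of the distance between its pools. In capsaicin jugular the same 4 genes stood at 239 ± 234, 56.6 ± 28.2, 100.1 ± 38.3 and 7.46 ± 2.83 CPM per kilobase.

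The difference between selections was tested on the 4 capsaicin and 4 Trpv1+ pools with edgeR's quasi-likelihood test, with ganglion as a covariate. To be called, a gene needed a Benjamini-Hochberg adjusted p no larger than 0.1, a difference of 2-fold or more, and 10 CPM or more in both pools of a group. Of all 11959 genes tested 5.84% were called, 4.06% lower and 1.77% higher in the capsaicin selection. The filter on low counts kept 6 of the 7 members, all but *Sox10*, and 3 were called. *Apoe* fell by 4.55 on the log2 scale in the capsaicin selection (standard error, SE, 0.35, adjusted p = 0.000121, edgeR). *Fabp7* fell by 2.26 (SE 0.59, adjusted p = 0.0655, edgeR). *Pmp22* rose by 1.60 (SE 0.31, adjusted p = 0.0157, edgeR). The *Fabp7* call was near the threshold. Without 1 of 5 single pools its adjusted p in edgeR lay between 0.115 and 0.277, with the largest value when the first Trpv1+ nodose pool was left out, and it was 0.150 with another scaling (RLE), inside a range of 0.0138 to 0.277 over all alternatives.

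The median log2 difference of all genes tested was -1.04 with TMM scaling and -0.51 with RLE scaling, and the share of calls that were higher in the capsaicin selection was 30.4% and 51.5%. Relative to the median of all genes, *Apoe* stood at -3.52, *Fabp7* at -1.23 and *Pmp22* at 2.63 on the log2 scale. *Apoe* lay at percentile 20.2, *Fabp7* at 36.3 and *Pmp22* at 83.2 of all genes tested. All 3 kept their direction in each scaling tried. *S100b* and *Glul* did not pass, with log2 differences of -0.49 (SE 0.68, adjusted p = 0.784) and -0.45 (SE 0.95, adjusted p = 0.880) in edgeR, and both turned to 0.13 with RLE scaling. *Mbp* had 0.41 with an SE of 2.997 (adjusted p = 0.987, edgeR).

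Gene by gene, an exact two-sided permutation test of log2(CPM + 1) between the 4 and 4 pools gave p = 0.0286 for *Apoe*, *Fabp7* and *Pmp22*, which is the smallest p that the design allows. The pools of the 2 selections did not overlap for these genes, and of all genes tested 18.3% did not overlap, 13.3% lower and 4.98% higher in capsaicin pools. The same exact permutation test gave p = 0.914 for *Mbp*, p = 0.600 for *S100b*, p = 0.829 for *Glul* and p = 0.143 for *Sox10*. With the counts of the Trpv1 selection thinned to the lowest total of the capsaicin pools, the log2 difference was -4.17 for *Apoe* and 1.98 for *Pmp22* (adjusted p = 0.00036 and 0.00566, edgeR), so both were still called at that depth, and *Fabp7* was not (adjusted p = 0.123, edgeR).

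Neuronal genes moved with the selection too. *Prph*, the intermediate filament peripherin of sensory neurons, fell by 2.76 on the log2 scale and *Uchl1*, a neuronal ubiquitin hydrolase, fell by 2.57 in the capsaicin selection (adjusted p = 0.000121 and 0.00045, edgeR), while *Snap25*, a protein of vesicle fusion, rose by 1.71 (adjusted p = 0.00541, edgeR). Of the 12 neuronal genes edgeR called 4 lower and 1 higher, beside 5.84% of all genes called. Counted without the test, 9 of the 12 differences were negative and 3 positive, and their median was -1.14, against -1.04 for all genes. DESeq2, which called 16.9% of all genes, called 4 neuronal genes lower (*Prph*, *Uchl1*, *Rbfox3* and *Thy1*) and 2 higher (*Snap25* and *Elavl4*). The other 2 lower genes, the neurofilaments *Nefm* (-1.86) and *Nefl* (-1.07), were not called with RLE scaling or in DESeq2. The part that cell number, RNA per cell or the calcium assay had in these differences was not tested.

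**Figure D2:**
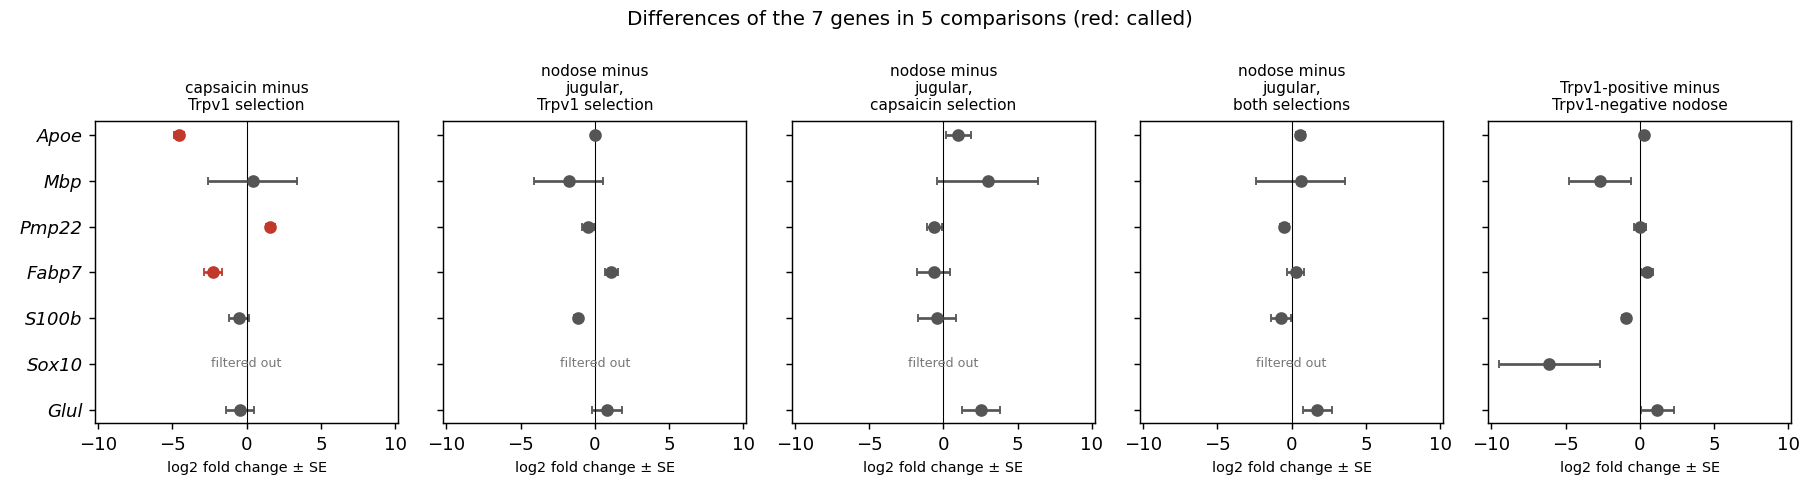
Log2 fold change of each of the 7 genes with its SE (horizontal bars) in 5 comparisons fitted with edgeR, red where the gene was called. Red points are *Apoe* (-4.55), *Pmp22* (1.60) and *Fabp7* (-2.26) in the comparison of selections, and *Sox10* is plotted for Trpv1+ against Trpv1- nodose pools only, since the filter on low counts left it out elsewhere.

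When the ganglia were compared within the Trpv1 selection, 0 of the 6 members tested were called, while 0.318% of 10990 genes were. At an unadjusted p under 0.05, 2 members passed in edgeR (11.9% of all genes did), and DESeq2 called 0 members (4% of all genes). These 2 were *S100b*, with a log2 difference of -1.14, nodose being lower (SE 0.28, unadjusted p = 0.00925, adjusted p = 0.321, edgeR), and *Fabp7*, with 1.11 (SE 0.41, unadjusted p = 0.0396, adjusted p = 0.384, edgeR). The 2 *S100b* pools of each ganglion did not overlap, nor did those of *Fabp7*, and with 2 against 2 pools 42.1% of all genes tested do not overlap. *Apoe* had a log2 difference of 0.01 (SE 0.22) and *Pmp22* of -0.46 (SE 0.40). For *Apoe* the sign of this value turned with plain total counts and with no filter on low counts.

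Within the capsaicin selection, 0 of 6 members and 0 of 8181 genes were called by edgeR (percentage called: 0). At an unadjusted p under 0.05 there were 1150 genes (14.1%), and DESeq2 called 748 (6.91%), with 0 members in either. *Glul* had the log2 difference farthest from 0 in units of its error, 2.53 higher in nodose (SE 1.29, adjusted p = 0.535, edgeR). *Apoe* had 1.02 (SE 0.85) and *Pmp22* -0.61 (SE 0.50). *S100b* changed sign when either the first nodose or the first jugular pool was left out, at 0.42 and 1.23 against -0.42.

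With the 8 pools of both selections in a single fit, 0 of 6 members were called between the ganglia, and 0.577% of the 11959 genes. In edgeR 0 members were at an unadjusted p under 0.05 (11.1% of all genes), and DESeq2 called 0 members (8.58%). *Apoe* stood 0.57 higher in nodose on the log2 scale (SE 0.31, adjusted p = 0.577, edgeR) and *Glul* 1.73 higher (SE 0.97, adjusted p = 0.623, edgeR). The test of whether the ganglion difference itself differed between selections called 0 members and 0 genes in edgeR (percentage called: 0), with 1233 genes (10.3%) at an unadjusted p under 0.05 and 1150 (8.88%) called by DESeq2, again with 0 members in either. The interaction of *Fabp7* was -1.84 (SE 0.97, adjusted p = 0.544, edgeR), from a nodose level above jugular in the Trpv1 selection and below it in the capsaicin selection. That difference did not pass the test.

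Between Trpv1+ and Trpv1- nodose neurons all 7 members were tested and 0 were called, against 0.0527% of 11386 genes. In edgeR 1 member was at an unadjusted p under 0.05 (11.1% of all genes), and DESeq2 called 0 members (2.9%). *Sox10* had a log2 difference of -6.11, lower in Trpv1+ pools, with an SE of 3.39 (adjusted p = 0.661, edgeR). In DESeq2 the *Sox10* difference was -6.05 with an adjusted p of 0.0943, inside a range of 0.0943 to 0.927 over the alternatives, and it was not called since 1 of the 2 Trpv1- pools was below 10 CPM. The 1 member was *S100b*, at -0.95 (SE 0.28, unadjusted p = 0.0191, adjusted p = 0.366, edgeR). *Mbp* differed by -2.70 (SE 2.097), and *Apoe*, *Pmp22*, *Fabp7* and *Glul* by 0.25, 0.01, 0.46 and 1.18 on the same scale, all short of the threshold.

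Other markers of the same cells give a reading of the pools that does not use the 7 genes. Of 14 other genes of satellite glia, *Gfap*, an intermediate filament of activated glia, was at 0 in all 10 pools, and *Slc1a3*, the glial glutamate transporter, was at 0 in the 4 Trpv1+ pools. *Kcnj10*, the potassium channel of satellite glia, reached 16.3 CPM in the first Trpv1- nodose pool and at most 0.312 CPM in the Trpv1+ pools and 1.45 CPM in the capsaicin pools. *Vim*, a filament gene of many cell types, was at 411 to 575 CPM in pools of the Trpv1 selection and 58.4 to 470 CPM in capsaicin pools. It was the 1 gene of this list that edgeR called between selections among the 9 tested, at a log2 difference of -1.957, lower in capsaicin pools (adjusted p = 0.0419, edgeR), and it was not called with RLE scaling or in DESeq2. DESeq2 called a different gene of the list, *Ptprz1*, a receptor phosphatase of glia, at -5.57 (adjusted p = 0.0200, DESeq2). Of all genes tested between selections, edgeR called 5.84% and DESeq2 16.9%. The summed level of the list was 573 to 784 CPM in pools of the Trpv1 selection and 234 to 1004 CPM in capsaicin pools, so the ranges overlapped.

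Of 16 other genes of Schwann cells and myelin, *Mag* was at 0 in every pool, and 6 of the 16, among them *Prx*, *Egr2* and *Ugt8a*, were at 0 in all 4 capsaicin pools. *Scn7a*, a sodium channel of glia and of some neurons, was at 24.7 to 214 CPM in pools of the Trpv1 selection and at 170 to 241 CPM in those picked by capsaicin. Between selections edgeR called 0 of the 10 genes tested, 1 of which had an unadjusted p under 0.05, with 5.84% of all genes called. DESeq2, which called 16.9% of all genes, called 1 gene of the list. This was *Drp2*, a dystrophin-related protein of myelinating Schwann cells, at -6.42 (adjusted p = 0.0531, DESeq2). The median log2 difference was -1.87 against -1.04 for all genes, and the summed level was 128 to 600 CPM and 339 to 1005 CPM.

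Markers of other cells in the ganglia were mostly not detected. Of 12 genes of macrophages and microglia, 10 were at 0 in all 10 pools, including *Csf1r*, *Aif1* and *C1qa*, while the lysosomal gene *Cd68* reached 93.8 CPM in the first capsaicin nodose pool. All 7 red blood cell genes were at 0. The summed level of 8 endothelial and mural genes was at most 39.4 CPM, and that of 7 fibroblast genes at most 38.1 CPM in the Trpv1 selection and 296 CPM in the capsaicin selection, where it came from *Dcn* in a single jugular pool. The first capsaicin nodose pool was the highest in *Mbp* and *Cd68* together, and the first Trpv1- nodose pool in *Sox10* and *Kcnj10* together. The part of other cells in these values was not tested.

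**Figure D3:**
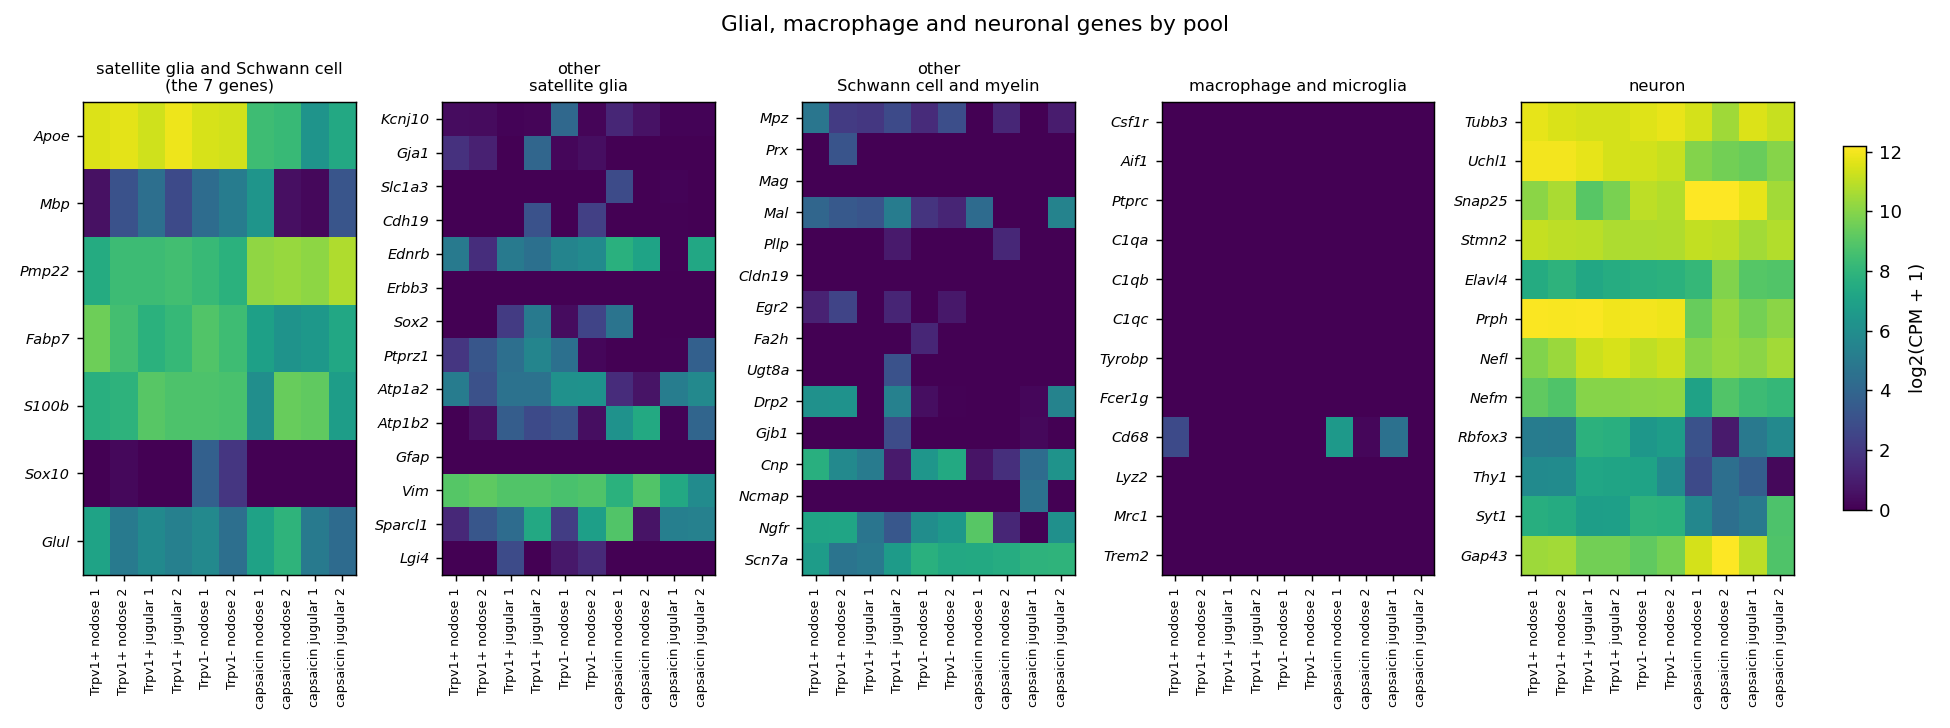
Log2(CPM + 1) of the 7 genes, of other markers of satellite glia, of Schwann cells and myelin, of macrophages and microglia, and of neurons, with 1 column per pool and 1 row per gene shown. Of the 12 neuronal genes, 10 are at or above 10 CPM in all 10 pools, while *Gfap*, *Mag* and 10 of 12 macrophage genes are at 0 throughout. *Apoe* and *Pmp22* change colour between the 6 pools of the Trpv1 selection on the left of each panel and the 4 capsaicin pools on the right.

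The genes that work with 2 of the members were read from lists as well. Around *Glul*, 5 of 8 genes of the glutamate and glutamine cycle were tested between selections and 1 was called, beside 5.84% of all genes. This was the glutamine transporter *Slc38a2*, 1.87 higher on the log2 scale in capsaicin pools (adjusted p = 0.0624, edgeR), at 108 to 1059 CPM against 29.6 to 124 CPM in the Trpv1+ pools. Around *Apoe*, all 9 genes of apolipoproteins, their receptors and lipid transfer were tested and 1 was called, again beside 5.84% of all genes. The sterol exporter *Abcg1* was higher by 5.30 (adjusted p = 0.0346, edgeR), at 202 to 2228 CPM in capsaicin pools and 0.796 to 31.8 CPM in Trpv1+ pools. *Clu*, another apolipoprotein, was at 174 to 1384 CPM and 146 to 496 CPM in the same pools. The median log2 difference was 1.87 for the first list and 0.48 for the second, against -1.04 for all genes.

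The profiles of the members over the 10 pools were set beside those of all genes that reached 10 CPM in at least 2 pools. The measure was the root mean square difference of log2(CPM + 1) after centring each gene on its own mean, given as a description. *Apoe* was most like *Rps2* (0.31) and *Dclre1c* (0.38), against a root mean square of 2.03 for its own profile around its mean. *Pmp22* was most like *Morf4l2* (0.41) and *Rab7* (0.44), with an own value of 1.13, and *Fabp7* most like *Dctn2* (0.45) and *Diablo* (0.45), with 1.01. The nearest for *S100b* were *Rsrc1* (0.50) and *0610011F06Rik* (0.58), for *Glul* *Spock1* (0.54) and *Sltm* (0.57), and for *Mbp* *Cog6* (0.51) and *Pwp1* (0.69). No member was among the 2 genes most like another member. The closest pair of members was *Apoe* and *Fabp7*, at 1.30, and *Fabp7* ranked 528 among the genes nearest to *Apoe*. Pools of a selection share the sequencing core and a like depth, and these points are not independent of that.

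**Figure D4:**
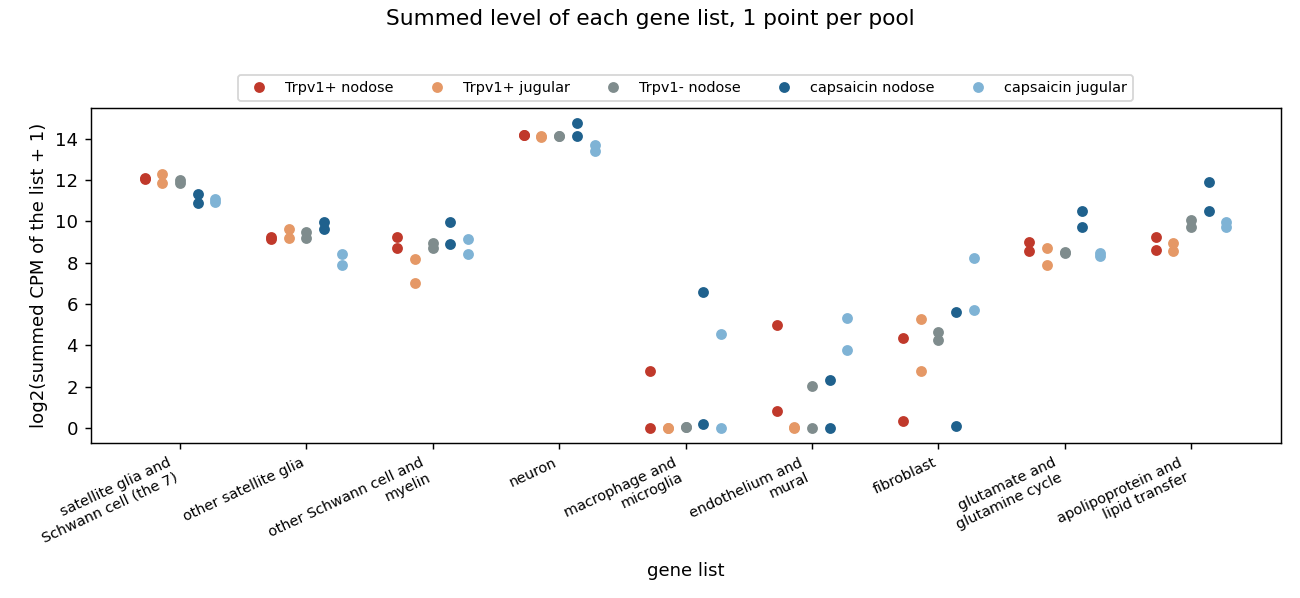
Summed level of each gene list in each pool, as log2(summed CPM + 1), with 1 point per pool coloured by group. The sum of the 7 genes is 3674 to 4952 CPM in pools of the Trpv1 selection and 1869 to 2550 CPM in capsaicin pools, while the sums of the other glial lists overlap between selections.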

How the data were processed

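RNA of 10 pools of picked mouse vagal neurons was amplified with the SMARTer Ultra Low Input kit and sequenced. Per the labels and the study's methods, the authors aligned reads to mm10 with TopHat2 2.0.9 and Bowtie2 2.1.0.0 and counted them with HTSeq, and the deposited values are raw counts per gene symbol. The annotation they counted on is not given in the sources used here. Replicate numbers come from the labels. The members and lists were chosen with earlier results of these data known.

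Each comparison was fitted on its own pools, over all genes, with edgeR 4.0.16 in R 4.3.3 (TMM, filterByExpr, estimateDisp, glmQLFit, glmQLFTest) and Benjamini-Hochberg adjustment. The fits were also run on simulated counts with fixed dispersions and large planted differences, which cannot show the error rates in these pools. DESeq2 1.42.0, RLE size factors, plain totals, no filter on low counts, all 10 pools in a single fit, a replicate block, thinning and leaving out each pool were the alternatives. The call rule was that of the study. CPM used DESeq2 size factors, so levels and TMM-based folds differ in scale, and these CPM do not sum to the same total in each pool. Levels per kilobase used merged exons of GENCODE vM21 (GRCm38), which may differ from the authors' annotation. Genes named were the 7 members and, of each list, genes with the highest mean CPM, those called and, chosen after their values were seen, the markers at or near 0. Same-numbered pools did not deviate together (correlations of 0.00049, -0.0101 and -0.00871 over genes in 3 comparisons), and the main fits used no pairing. These correlations cannot tell whether same-numbered pools share a mouse, which the labels do not give. The level of 1 gene of the myelin list is not reported here.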

Additional observations from a re-analysis of the deposited data

How the results depend on the processing

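*Apoe* and *Pmp22* were called between selections under every alternative, and of 448 repeated member differences 403 kept direction and side of the threshold. *Fabp7* lost its call in 9, at adjusted p of 0.150 (RLE), 0.117 (plain totals), 0.106 (replicate block), 0.123 (thinning) and, without single pools, at up to 0.277. A reversal occurred in 16 of 37 member differences, none of them called. With plain totals, *Apoe* turned to -0.15 between ganglia of the Trpv1 selection (-0.028 with no filter) and to -0.11 between Trpv1+ and Trpv1- pools, where *Pmp22* turned to -0.34. Between selections *S100b* turned to 0.132 in DESeq2 and 0.133 with RLE, and *Glul* to 0.130 in DESeq2 and 0.131 with RLE. The *Pmp22* interaction turned to 0.207 in DESeq2 and with RLE and to 0.10 with all 10 pools. The mean log2 level of *Glul* turned to -0.20 with plain totals. The cause of these changes was not tested.

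Whether same-numbered pools share a mouse is not given in the labels. With a replicate block, *Pmp22* turned to -0.046 between Trpv1+ and Trpv1- pools and *Mbp* to -1.73 between ganglia over both selections. The block moved the count of all genes called to 13 (from 35) in the Trpv1 selection, 20 (from 0) in the capsaicin selection, 1 (from 6) between Trpv1+ and Trpv1- pools and 41 (from 69) over both selections. Under the block *Fabp7* lost its call between selections (adjusted p = 0.1065, edgeR), and no other call of a member changed.

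In the same order of comparisons DESeq2 called 534, 748, 411 and 1187 genes, 2331 (from 698) between selections and 1150 (from 0) for the interaction. With no filter on low counts the counts were 59, 122, 10 and 222, and 95 for the interaction. With all 10 pools in a single fit they were 111 in the capsaicin selection, 213 over both selections, 1414 between selections and 7 for the interaction. The summed CPM of the 7 genes became 4505 with plain totals and 4973 with TMM in Trpv1+ nodose pools, 5146 and 4355 in Trpv1- pools, 1379 with plain totals in capsaicin nodose and 1753 with TMM in capsaicin jugular pools.

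Without single pools, where a lone pool was assumed to vary like those of the other groups, genes called ranged from 0 to 0 in the Trpv1 selection and between Trpv1+ and Trpv1- pools, 0 to 29 in the capsaicin selection, 38 to 89 over both selections, 415 to 742 between selections and 0 to 195 for the interaction. The lowest were 38 without the second capsaicin jugular pool and 415 without the first Trpv1+ nodose pool, and the interaction reached 195 without the first capsaicin nodose pool. Among member differences, in the Trpv1 selection *Apoe* ranged from -0.28 to 0.33 and *Glul* from -0.62 to 1.52. In the capsaicin selection *Mbp* ranged from -3.83 to 7.53 and *S100b* from -2.62 to 1.23. Between Trpv1+ and Trpv1- pools *Pmp22* ranged from -0.50 to 0.40, *Fabp7* from -0.086 to 0.88 and *Glul* from -0.24 to 2.01. Over both selections *Mbp* ranged from -2.51 to 1.83 and *Fabp7* from -0.12 to 0.68, and between selections *Mbp* from -2.62 to 1.70. The interaction ranged from -2.08 to 9.35 for *Mbp*, from -0.54 to 0.29 for *Pmp22* and from -1.54 to 2.70 for *S100b*. The mean log2 difference between selections ranged from -4.33 to -3.63 for *Apoe*, 1.92 to 2.26 for *Pmp22*, -1.98 to -1.40 for *Fabp7*, -1.37 to 0.67 for *Mbp*, -1.002 to 0.12 for *S100b* and -0.35 to 0.88 for *Glul*. With 7 pools the exact permutation test of the first 3 gave p = 0.0571, the smallest it allows there.

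*Sox10* had 0 counts in the capsaicin pools, where a level under 0.146 to 0.217 CPM was not detectable, and with 2 pools a group a member difference is seen only when it is large against its replicates.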
